A study of Mus musculus with 36 samples.

Results

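The comparison described here sets 3 prostate miRNA libraries of homozygous A537T mice against 3 of WT mice at 10 weeks of age. A537T is a point variant of ELAC2, the mouse counterpart of a human variant linked to prostate cancer. It was introduced by CRISPR-Cas9 into the germline, so every cell of the animal carries it. None of the mice of this comparison carried TRAMP, a probasin-promoter transgene that expresses SV40 T antigens in prostatic epithelium. Other groups are used for context near the end. They are a prostate-specific Elac2 knockout at 10 weeks, A537T and WT at 30 weeks, and A537T and WT with TRAMP +/- at 10 weeks. All mice were males on the C56NL/6N background (as the study spells it), matched by age and litter, and the ventral and lateral prostate lobes were sampled. The miRNAs described are the 511, of 1963 listed, whose normalised counts averaged 10 or more across these libraries. The libraries are 6 of the 36 in the series, which has 12 groups of 3. The table's columns carry library numbers and not replicate numbers. Libraries 28, 29 and 30 are the WT ones and 34, 35 and 36 the A537T ones, an assignment that rests on the table's name and on the columns it shares with other tables. No miRNA reports the Elac2 genotype, so nothing in these values checks it.

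miRNAs are short RNAs that guide Argonaute proteins to matching sites in mRNAs, mostly through the seed at bases 2 to 8, and lower the output of those mRNAs. Their precursors are cut by Drosha and Dicer, and each hairpin can release a 5p and a 3p strand. ELAC2 is the RNase Z that removes the 3′ trailers of nuclear and mitochondrial tRNA precursors. It is not part of the usual route to miRNAs, and the comparison asks how the miRNA pool stands in the gland when its function is impaired. The prostate lobes hold secretory and basal epithelium surrounded by smooth muscle and fibroblasts, with vessels and blood cells between them, and each of these carries its own characteristic miRNAs.

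The libraries were deep but for 1. Libraries 28, 29, 30, 34 and 36 held 14482305 to 17625145 miRNA reads and detected 930 to 1013 miRNAs each, whereas A537T library 35 held 655455 reads and detected 541. One read in library 35 was worth 12.5 normalised counts. There, 30 of the 511 miRNAs had no read and 146 had 3 reads or fewer. A count of 0 in that library allows a level of up to 37.6 normalised counts (3 reads), against 1.32 to 2.17 in the other 5. Intervals and floors of this kind cover counting error only.

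No miRNA differed between A537T and WT prostates past an adjusted p of 0.05 in limma (0 of 511, 0%), and the smallest adjusted p was 0.880. limma-voom, edgeR and DESeq2 on the recovered reads gave 0 calls as well. At an unadjusted p under 0.05 there were 23 miRNAs (4.50% of those tested), of which 7 were higher in A537T (1.37%) and 16 lower (3.13%). The 3 A537T values lay entirely above the 3 WT values for 14 miRNAs (2.74%) and entirely below them for 23 (4.50%). Overlap is judged here and below on the normalised counts, and was not counted with libraries scaled to their totals. The median log2 fold change, A537T minus WT, was -0.0029, with 253 miRNAs above 0 and 258 below. Scaling each library to its total moved that median to 0.15 and put 331 above 0, so small differences are read against this shift. The median standard error was 0.38 on the log2 scale and the median 95% interval reached 0.89 to each side of the estimate. For 192 miRNAs that interval excluded a 2-fold difference in either direction, that is a log2 fold change of 1 or more in size. The others are not shown to be alike in the groups. An exact permutation test of 3 libraries against 3 cannot go below 0.1, so single values are given with their spread and the limma fit.

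**Figure D1:**
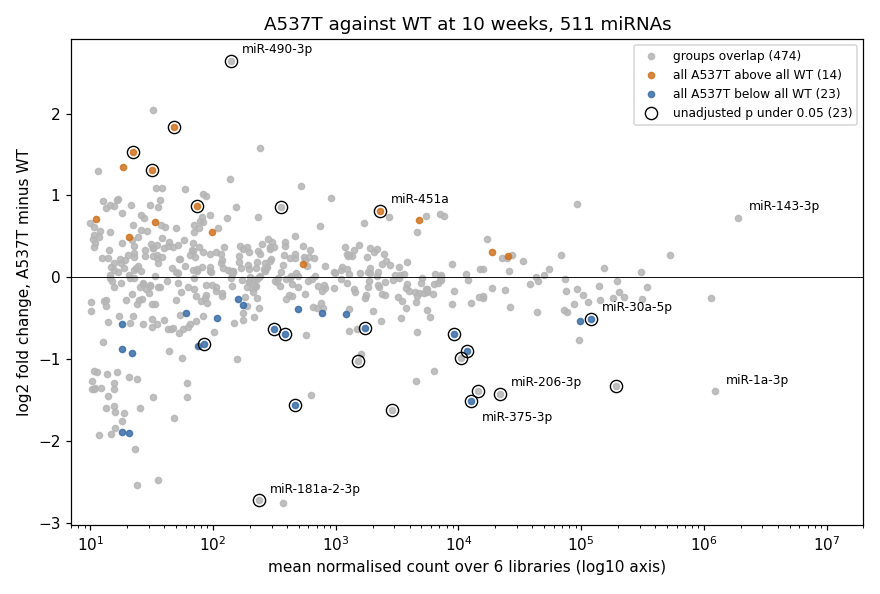
log2 fold change (A537T minus WT) against the mean normalised count over 6 libraries (log10 axis), 1 point for each of the 511 miRNAs. Orange and blue points are the 14 and 23 miRNAs whose 3 A537T values lie all above or all below the 3 WT values, and black rings mark the 23 with an unadjusted p under 0.05; most points lie close to 0, and those far from 0 are mainly rare or muscle miRNAs.

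Sequences are shown for 10 of the 20 miRNAs with the smallest p (10 higher and 10 lower, mean of at least 100). These 10 are the ones whose sequence matched by name, and none of the 20 passed the adjusted threshold. The sequences were read from RefSeq on GRCm38.p6, in which 441 of the 511 miRNAs matched by name. They are given 5′ to 3′ with the seed in capitals. The higher ones are the following.

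miR-451a: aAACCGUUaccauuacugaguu

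miR-495-3p: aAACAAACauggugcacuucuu

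miR-490-3p: cAACCUGGaggacuccaugcug

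miR-203-3p: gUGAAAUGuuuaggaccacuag

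The lower ones, with the tested miRNAs of a matched sequence that share the miR-30a-5p seed and with miR-378b and miR-30a-3p for comparison, are the following.

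miR-206-3p: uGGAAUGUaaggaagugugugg

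miR-30c-2-3p: cUGGGAGAaggcuguuuacucu

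miR-181a-2-3p: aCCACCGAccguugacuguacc

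miR-10b-3p: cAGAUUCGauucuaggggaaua

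miR-378c: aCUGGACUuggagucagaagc

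miR-378b: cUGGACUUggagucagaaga

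miR-30a-3p: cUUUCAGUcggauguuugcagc

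miR-30a-5p: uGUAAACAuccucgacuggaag

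miR-30c-5p: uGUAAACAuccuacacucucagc

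miR-30e-5p: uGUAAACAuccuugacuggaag

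miR-384-5p: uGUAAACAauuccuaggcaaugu

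The 17 miRNAs with an unadjusted p under 0.05 and a sequence carried 17 distinct seeds, so no seed was held by 2 of them. The rest of the 23, miR-133a-3p among them, had no sequence matched by name. Seeds shared with those were not counted, so this does not show that no seed recurs among the 23. The miR-30a-5p seed was held by 4 tested miRNAs with a sequence, of which miR-384-5p, a rare miRNA named after its values were seen, lay above 0. It had 60.5, 11.8 and 7.24 normalised counts in WT and 29.2, 25.1 and 51.2 in A537T, with overlap (log2 fold change 0.89 ± 0.77). miR-378b and miR-378c share a run of 19 bases but start at different positions, which moves the seed by 1 base. miR-30a-5p and miR-30e-5p differ at 1 of 22 bases, and their counts depend on how the mapping split reads between such copies. GC content stood in a weak relation to the differences over the 441 miRNAs (Spearman rho = -0.13, a description over miRNAs of the same 6 libraries), and the median log2 fold change was 0.09 for the 79 miRNAs under 40% GC and -0.05 for the 66 at 60% or more.

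These precursors lie at separate places in the genome, given here on GRCm38 with the GENCODE M21 annotation. Mir30a (chr1:23272269-23272339, plus strand) lies outside other annotated genes, and Mir30c-2 (chr1:23291701-23291784, plus strand) lies near it in an exon of the lincRNA Gm27028. Mir206 (chr1:20679010-20679082, plus strand) lies in an exon of the lincRNA Gm28653, and Mir451a (chr11:78073170-78073241, plus strand) lies opposite Mir451b. Mir10b (chr2:74726070-74726137, plus strand) is intronic to Hoxd3 and Hoxd4, and Mir490 (chr6:36421742-36421825, plus strand) is intronic to the muscarinic receptor gene Chrm2. Mir181a-2 (chr2:38852735-38852810, plus strand) lies opposite an intron of Nr6a1, and Mir378c (chr14:46954830-46954928, minus strand) opposite an intron of Samd4. Mir495 (chr12:109718754-109718816) and Mir203 (chr12:112130880-112130955), both on the plus strand, lie outside other annotated genes.

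miR-375-3p, a miRNA of secretory epithelium and neuroendocrine cells that is abundant in prostate cancer, was the lowest in A537T by p among the miRNAs of at least 100 normalised counts. Its normalised counts were 20413, 21353 and 12878 in WT libraries 28, 29 and 30 and 10371, 7791 and 2984 in A537T libraries 34, 35 and 36. All A537T values lay below all WT values, although A537T library 36 stood well below libraries 34 and 35. As a share of all miRNA reads the groups overlapped. A537T library 34 (15996 of 14482305 reads) lay above WT library 30 (17781 of 17107248). The means were 18215 ± 4646 and 7049 ± 3749 (SD, n = 3 each), and the log2 fold change was -1.51 ± 0.47 (SE; 95% interval -2.60 to -0.43; limma adjusted p = 0.880). The other 5 miRNAs of the neuroendocrine and neural list were on the opposite side of 0 and the list's median was 0.49, so miR-375-3p did not stand with that list. Without A537T library 36 its log2 fold change was -0.98.

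miR-30a-5p, a widely expressed miRNA of epithelia and muscle, had the smallest standard error in limma among the 10 lower miRNAs. It stood at 141120, 143200 and 140590 normalised counts in the WT libraries and at 107120, 96474 and 96618 in the A537T libraries. In these values the groups were well apart relative to the spread within them (141630 ± 1379 and 100070 ± 6105, SD, n = 3). As a share of all miRNA reads they overlapped. WT library 30 (194121 of 17107248 reads) lay between A537T libraries 36 (165926 of 15770867) and 34 (165219 of 14482305). On the normalised counts limma, which pools the spread over miRNAs of like level, gave a log2 fold change of -0.50 ± 0.19 with adjusted p = 0.880. Its other strand, miR-30a-3p, had 8887, 9515 and 16211 in WT and 7752, 6701 and 6344 in A537T, again without overlap (log2 fold change -0.69 ± 0.28, limma adjusted p = 0.880; -0.41 without WT library 30).

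The neighbouring precursor gave the same picture. miR-30c-2-3p had 1854, 2120 and 2263 normalised counts in WT and 1591, 1278 and 1219 in A537T. These groups did not overlap (log2 fold change -0.61 ± 0.22, limma adjusted p = 0.880). Its partner strand miR-30c-5p, which 2 precursors can supply, overlapped between groups, with a log2 fold change of -0.42 ± 0.26. Of the 7 members of the miR-30 list, 6 were below 0 under the authors' scaling and also when libraries were scaled to their totals. The median was -0.38, and 2 had an unadjusted p under 0.05, against 3.13% lower at such a p over all 511. miR-30d-5p, the other abundant member, spread from 73636 to 197710 within WT and overlapped (log2 fold change -0.30 ± 0.37).

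The miR-10 and miR-196 miRNAs, which are encoded in the Hox clusters and mark position along the body axis, were mostly lower. miR-10b-3p had 418.3, 334.4 and 399.1 normalised counts in WT and 228.9, 225.5 and 291.1 in A537T, with no overlap (log2 fold change -0.63 ± 0.24, limma adjusted p = 0.880). miR-10a-5p had 150570, 107140 and 93263 in WT and 92316, 76934 and 69608 in A537T, with no overlap (log2 fold change -0.54 ± 0.25). The highest A537T value, in library 34, was only just under the lowest WT value, in library 30. miR-10b-5p overlapped (log2 fold change -0.40 ± 0.25). In the list of 7, 6 were below 0, 3 did not overlap in normalised counts, 1 had an unadjusted p under 0.05, and the median was -0.44. The list's share of all miRNA reads did overlap. It was 3.51%, 1.85% and 1.46% in WT libraries 28, 29 and 30 and 1.72%, 1.81% and 1.66% in A537T libraries 34, 35 and 36. By this share WT library 30 lay below every A537T library. Among all 511, 4.50% were lower without overlap and 3.13% lower at such a p.

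Skeletal muscle miRNAs, which direct muscle differentiation and are rare in epithelium, were on the lower side in A537T, with overlapping groups. miR-206-3p had 13924, 39021 and 43193 normalised counts in WT and 16581, 10409 and 7129 in A537T (log2 fold change -1.42 ± 0.49, limma adjusted p = 0.880). miR-133a-5p had 1691, 4277 and 6944 in WT and 2579, 1065 and 623.1 in A537T (log2 fold change -1.62 ± 0.64). miR-1a-3p, the most abundant of them and second among all 511 miRNAs, ran from 582710 in WT library 28 to 3392100 in WT library 30 and from 281850 to 1049300 in A537T (log2 fold change -1.39 ± 0.70). For each of the 3, A537T library 34 exceeded WT library 28. All 8 tested members were below 0 under every scaling tried, and the median was -1.40 against -0.0029 over all 511. Of the 8, 4 had an unadjusted p under 0.05 and none was without overlap, against 3.13% and 4.50% lower over all 511. miR-133a-3p and miR-133b-3p were the other 2 with such a p, at -1.33 ± 0.55 and -1.39 ± 0.57. miR-499-5p (-2.75 ± 1.34), miR-208b-3p (-2.47 ± 1.12) and miR-1a-1-5p (-0.56 ± 0.63), a rarer set, varied more between libraries. Without A537T library 36 the log2 fold changes were -0.81 for miR-133a-3p, -0.82 for miR-133b-3p and -0.91 for miR-1a-3p, and without WT library 30 that of miR-1a-3p was -0.78.

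The share of all miRNA reads taken by the skeletal muscle list was 9.73%, 19.1% and 30.7% in WT libraries 28, 29 and 30 and 13.7%, 8.36% and 3.72% in A537T libraries 34, 35 and 36, with 95% Wilson intervals no wider than 8.29% to 8.43% in library 35. This list therefore spanned more within WT than between the group means. The study's methods state that surrounding connective or adipose tissue was removed before the lobes were dissected. In whole tissue, fewer cells of a type and less RNA per cell cannot be told apart. The part of these shares in the other differences was not tested.

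miR-378 family miRNAs, which are abundant in muscle, were high in the same WT libraries as the muscle list. miR-378c had 7018, 18337 and 17575 normalised counts in WT and 7562, 6351 and 6144 in A537T (log2 fold change -0.98 ± 0.38, limma adjusted p = 0.880). WT library 28 was the one that fell among the A537T values. miR-378a-3p had 65726 in WT library 28, below the whole A537T range of 67552 to 69209, against 136860 and 173070 in the other WT libraries (log2 fold change -0.76 ± 0.36). All 5 members were below 0 under every scaling, and the median was -0.93. Of these, 2 (miR-378c and miR-378b, -1.02 ± 0.40) had an unadjusted p under 0.05 and none was without overlap. The shares lower over all 511 were 3.13% at such a p and 4.50% without overlap.

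**Figure D2:**
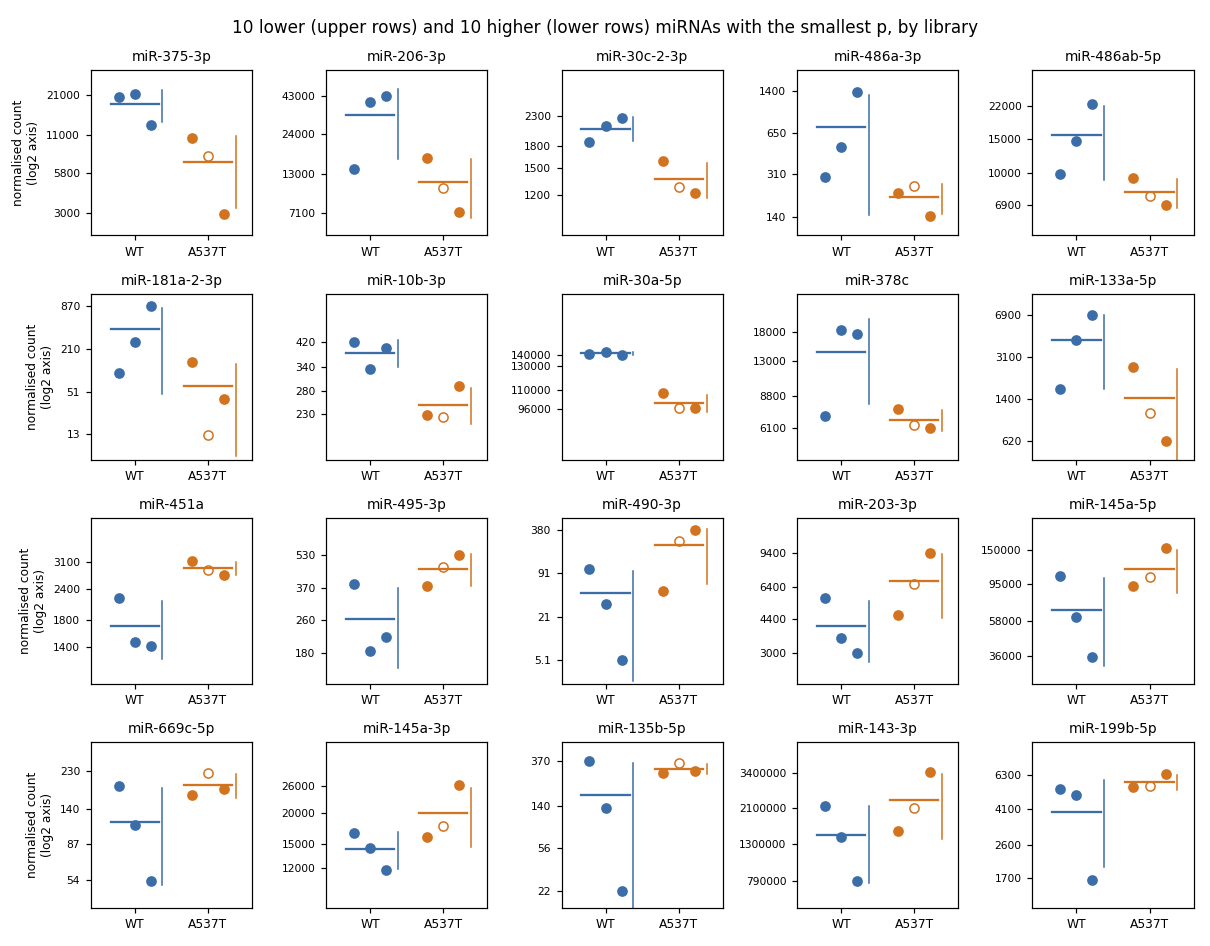
Normalised counts (log2 axis) of the 10 lower miRNAs (upper 2 rows) and the 10 higher miRNAs (lower 2 rows) with the smallest p, 1 point per library in the order 28, 29, 30 (WT, blue) and 34, 35, 36 (A537T, orange; library 35 open). Horizontal lines are group means and thin vertical lines span 1 SD to each side, ending early where they would leave the axis. In these normalised counts miR-30a-5p, miR-375-3p and miR-451a separate the groups. For miR-206-3p and miR-378c, WT library 28 lies among the A537T values.

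miR-451a, a red cell miRNA that matures through Argonaute2 without Dicer, had the smallest p of all 511. It stood at 2213, 1459 and 1417 normalised counts in the WT libraries and at 3123, 2881 and 2756 in the A537T libraries. The groups did not overlap and were 1697 ± 448 and 2920 ± 187 (SD, n = 3), a log2 fold change of 0.81 ± 0.24 (95% interval 0.25 to 1.38; limma adjusted p = 0.880). The miR-486 members of the red cell list lay on the other side of 0. miR-486ab-5p, also abundant in muscle, had 9876, 14510 and 22464 in WT and 9430, 7653 and 6877 in A537T (log2 fold change -0.90 ± 0.32, limma adjusted p = 0.880). Its opposite strand miR-486a-3p had 290.8, 504.9 and 1391 in WT and 219.1, 250.5 and 143.8 in A537T (log2 fold change -1.56 ± 0.55, limma adjusted p = 0.880). The near copy miR-486b-3p overlapped (-1.72 ± 0.80) and had 1 read in library 35. Both of the first pair were without overlap and both were highest in WT library 30, the library with the largest muscle share. Without that library their log2 fold changes were -0.60 and -0.94. miR-144-5p, made from the same transcript as miR-451a, had 43.2, 43.8 and 33.3 in WT and 74.6, 37.6 and 49.5 in A537T (log2 fold change 0.37 ± 0.37), and miR-144-3p ran from 11.8 to 24.7 in WT and from 12.5 to 20.7 in A537T, both with overlap. Library 35 held 3 reads of miR-144-5p and 1 of miR-144-3p, so their values there are coarse. Both miR-144 strands were above 0 like miR-451a, and the list had 3 of 6 above 0 and 3 below.

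miR-495-3p, from the imprinted Dlk1-Dio3 miRNA cluster, had 383.9, 184.2 and 214.4 normalised counts in WT and 374.8, 463.5 and 529.9 in A537T (log2 fold change 0.86 ± 0.33, limma adjusted p = 0.880). Only WT library 28 reached the A537T range. Of the 60 tested members of that cluster, 38 were above 0, 45 under scaling to totals, and the median was 0.17. Among the 60, 1 had an unadjusted p under 0.05, against 1.37% higher at such a p over all 511. That 1 was miR-495-3p itself, and the log2 fold changes of the cluster reached 0.89. miR-490-3p, the intronic miRNA of Chrm2, had the largest difference of the higher group but on few reads. It had 103.2, 32.7 and 5.07 in WT and 49.9, 263.0 and 384.3 in A537T (log2 fold change 2.64 ± 1.12, limma adjusted p = 0.880), and its 5p strand pointed the same way with overlap (2.04 ± 1.17). Without WT library 30 the 3p strand was at 1.55 and the 5p strand at 1.14.

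Smooth muscle and fibroblast miRNAs were on the higher side throughout. miR-143-3p, which with miR-145a supports the contractile state of smooth muscle, was the most abundant miRNA of the comparison, with 2172600, 1429800 and 785190 normalised counts in WT and 1544100, 2105600 and 3421500 in A537T (log2 fold change 0.73 ± 0.44). miR-145a-5p had 105720, 60620 and 35522 in WT and 92186, 103940 and 154250 in A537T (log2 fold change 0.90 ± 0.41, limma adjusted p = 0.880). For both, WT library 28 lay within the A537T range and WT library 30 was lowest. Without library 30 their log2 fold changes were 0.34 and 0.51. miR-145a-3p (0.47 ± 0.26) and miR-143-5p (0.77 ± 0.50) overlapped too, and miR-199b-5p, a stromal miRNA, had 5222, 4868 and 1673 in WT and 5375, 5424 and 6338 in A537T without overlap (log2 fold change 0.71 ± 0.43, and 0.18 without library 30). All 9 members were above 0 under every scaling, 2 were without overlap, none had an unadjusted p under 0.05, and the median was 0.47. Among all 511, 2.74% were higher without overlap and 1.37% higher at such a p. The list's share of miRNA reads was 30.8%, 15.8% and 7.34% in WT libraries 28, 29 and 30. In A537T libraries 34, 35 and 36 it was 18.7%, 28.4% and 40.7%. In both groups this share and the skeletal muscle share stood in opposite order over the 3 libraries.

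**Figure D3:**
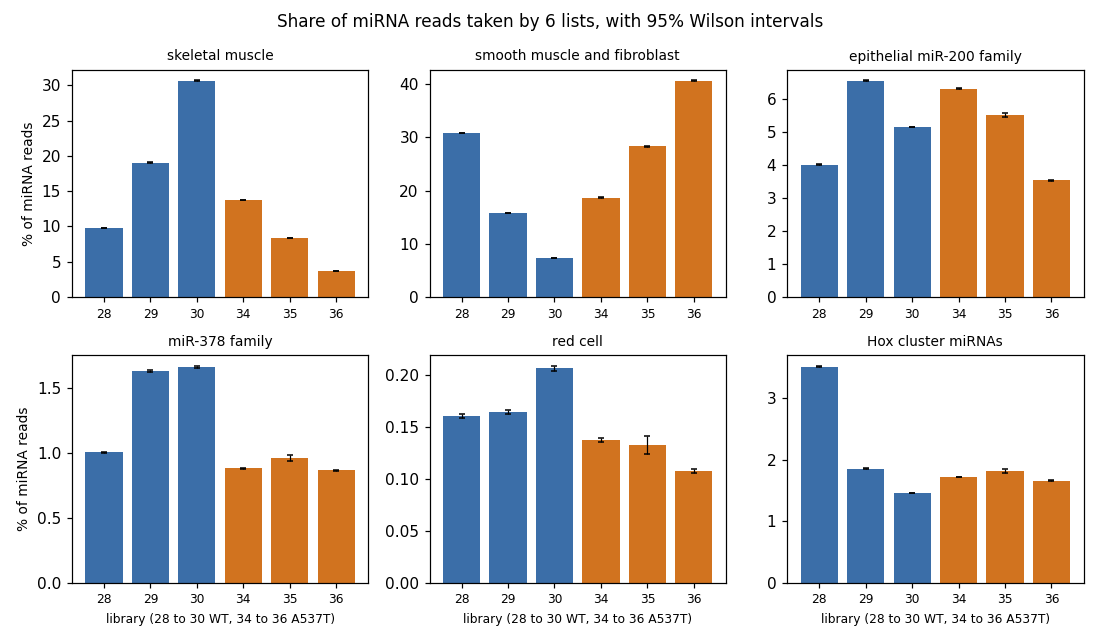
Percent of each library's miRNA reads taken by 6 lists of miRNAs, with 95% Wilson intervals (counting error only); WT libraries 28 to 30 are blue and A537T libraries 34 to 36 orange. The skeletal muscle share is largest in WT library 30 (30.7%) and smallest in A537T library 36 (3.72%), the smooth muscle and fibroblast share runs the other way (7.34% and 40.7%), and WT library 28 lies inside the A537T range for both.

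Basal epithelial miRNAs were on the higher side. miR-203-3p, a miRNA of stratifying epithelium that restrains p63, had 5594, 3573 and 3006 normalised counts in WT and 4611, 6589 and 9391 in A537T (log2 fold change 0.75 ± 0.34, limma adjusted p = 0.880), and its 5p strand had at most 25.1 in any library (log2 fold change 0.93 ± 0.73). miR-205-5p, the main basal cell miRNA, had 25588, 22412 and 20706 in WT and 26385, 26354 and 29747 in A537T, a small difference without overlap (log2 fold change 0.27 ± 0.20). All 4 tested members were above 0, with a median of 0.56, although 1 of them was not when the libraries were thinned to the depth of library 35. As a share of all miRNA reads the list took 0.4022%, 0.2579% and 0.1917% in WT libraries 28, 29 and 30. In A537T libraries 34, 35 and 36 it took 0.3308%, 0.4028% and 0.4275%, so WT library 28 lay within the A537T range.

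The luminal epithelial signal did not separate the groups. The miR-200 family, which maintains epithelial identity, took 4.01%, 6.55% and 5.15% of reads in WT and 6.32%, 5.52% and 3.54% in A537T. Of its 9 members 8 were below 0, or 5 when scaled to totals, and the median was -0.18. The abundant miR-200b-3p spanned 119130 to 323510 in WT and 136850 to 262020 in A537T. The 4 miRNAs of the miR-183 cluster were divided 2 and 2.

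Leukocyte miRNAs were close to level, with 6 of 8 below 0 (1 under scaling to totals) and a median of -0.08. miR-223-3p, a neutrophil miRNA, had 202.1 to 233.2 normalised counts in WT and 199.7 to 225.5 in A537T, and miR-142a-5p, found in all leukocytes, had 855.3 to 1115 and 898.5 to 1065. miR-155-5p, induced in activated lymphocytes and macrophages, was the 1 member without overlap, with 495.5, 497.1 and 688.0 in WT and 407.2, 413.4 and 453.0 in A537T (log2 fold change -0.38 ± 0.23). The other members named for this list, miR-146a-5p, miR-146b-5p, miR-142a-3p, miR-150-5p and miR-223-5p, overlapped. The share lower without overlap was 4.50% over all 511. The endothelial miR-126a-3p overlapped as well (log2 fold change -0.28 ± 0.22), and the hepatocyte miRNA miR-122-5p was at 10.1 to 15.7 in WT and 10.5 to 25.1 in A537T, 2 reads in library 35.

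Broadly expressed families had medians near 0. The 10 let-7 miRNAs, which promote differentiation, had a median log2 fold change of -0.21 with all 10 below 0, but 4 of them were above 0 under scaling to totals. The 6 miR-15/16 miRNAs, which restrain the cell cycle, had a median of 0.12, with 6 above 0 (5 when the total was taken without the muscle list). The miR-17~92 and miR-106b~25 miRNAs, which are induced by MYC and E2F, had 5 of 11 above 0 and the miR-29 miRNAs, which repress collagen genes, 4 of 5. No member of these families had an unadjusted p under 0.05. The miR-34 and miR-449 miRNAs, which p53 and multiciliated cells induce, had 5 of 6 above 0, with miR-34b-3p the 1 at an unadjusted p under 0.05. Of the 14 miRNAs chosen from the prostate cancer literature, 4 were above 0 and 10 below. miR-375-3p was the 1 of them with an unadjusted p under 0.05. The share with such a p was 4.50% over all 511. miR-21a-5p, a growth-promoting miRNA, had 303990, 615110 and 558150 in WT and 687220, 552750 and 484680 in A537T (log2 fold change 0.27 ± 0.32). miR-148a-3p, an abundant epithelial miRNA, had 637580, 1388300 and 1755600 in WT and 1430400, 950420 and 679440 in A537T (log2 fold change -0.25 ± 0.44). Neither separated the groups, and the sign of each changed with 1 library left out (miR-21a-5p -0.0426 without WT library 28, miR-148a-3p 0.0498 without WT library 30 and 0.0095 without A537T library 36).

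The miRNAs of the Sfmbt2 intron, a large rodent family of miR-297, miR-466, miR-467 and miR-669 sequences, were rare but mostly on 1 side. Of the 71 listed, 17 passed the filter on low values, and among those 16 were above 0 with a median of 0.68. Of the 17, 1 had an unadjusted p under 0.05 and 4 were without overlap, against 1.37% and 2.74% higher over all 511. Of all 511, 253 lay above 0. Near-identical members share reads and the rest of the list was too rare to be tested, so these counts are only a description. miR-669c-5p, the one with the smallest p among those of at least 100 counts, had 187.5, 112.3 and 53.6 in WT and 167.3, 225.5 and 181.7 in A537T (log2 fold change 0.86 ± 0.45). miR-135b-5p, a Wnt-linked miRNA outside that family, had 371.1, 131.9 and 21.7 in WT and 285.3, 350.7 and 295.2 in A537T (log2 fold change 1.58 ± 0.89). Again WT library 30 was the low one, and without it the log2 fold changes were 0.39 for miR-669c-5p and 0.48 for miR-135b-5p.

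Among the lower miRNAs, miR-181a-2-3p, the passenger strand of a precursor whose main product is miR-181a-5p, had the largest difference of the 10 with the smallest p, with 97.95, 263.2 and 866.9 normalised counts in WT and 136.8, 12.5 and 41.3 in A537T (log2 fold change -2.72 ± 0.99, limma adjusted p = 0.880). The A537T library 35 value was 1 read. The main strand miR-181a-5p overlapped (log2 fold change -0.25 ± 0.35). The 6 remaining miRNAs with an unadjusted p under 0.05, named after their values were seen, were mostly rare. miR-582-5p (1.84 ± 0.59), miR-212-3p (1.31 ± 0.48), miR-34b-3p (0.87 ± 0.35) and miR-467a-3p (1.53 ± 0.65) were higher without overlap, on 8, 5, 11 and 3 reads in library 35. miR-1843a-3p (-0.82 ± 0.33) was lower on 4 reads there, and miR-664-3p, which overlaps a small nucleolar RNA, was lower with 393.1, 539.5 and 479.4 in WT and 365.7, 212.9 and 312.1 in A537T (log2 fold change -0.69 ± 0.28).

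The strands of a precursor come from the same hairpin, so their agreement is a further description of these differences. Over the 143 precursors with both strands tested, 89 (62.2%) had the same sign and Pearson's r was 0.52. Over the 72 precursors with both strands at a mean of at least 100, 52 had the same sign and r was 0.71. These are descriptions over miRNAs of the same 6 libraries. Precursors were counted where both strands carry the same name, which leaves out strands that several precursors supply. Among those counted, 10 had an unadjusted p under 0.05 for at least 1 strand, each had both strands on 1 side of 0, and miR-30a and miR-133a had such a p for both. Of the strands left out, miR-486a-3p and miR-486ab-5p both had such a p, and miR-30c-2-3p and miR-181a-2-3p lay on the same side of 0 as miR-30c-5p and miR-181a-5p.

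Libraries of 1 genotype differed from each other, and WT libraries 28 and 30 stood furthest apart. Over the 156 miRNAs with a mean of at least 1000, the median absolute log2 difference was 0.65 between WT libraries 28 and 30. It was 0.34 and 0.38 for the other WT pairs and 0.22 to 0.38 for the A537T pairs, so those did not stand apart. The highest and lowest WT values were over 2-fold apart for 57 of these 156 miRNAs and the A537T values for 16. The widest WT range was that of miR-128-3p, a neural and muscle miRNA named after its values were seen, with 1531, 2915 and 26829 in WT and 2903, 2255 and 1702 in A537T (log2 fold change -1.14 ± 0.94). WT library 30 set that mean, and without it the log2 fold change was 0.08. At levels of 10 to 100 the A537T pairs with library 35 differed by 0.73 and 0.63 and the pair of libraries 34 and 36 by 0.44, against 0.51 to 0.87 for the WT pairs.

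**Figure D4:**
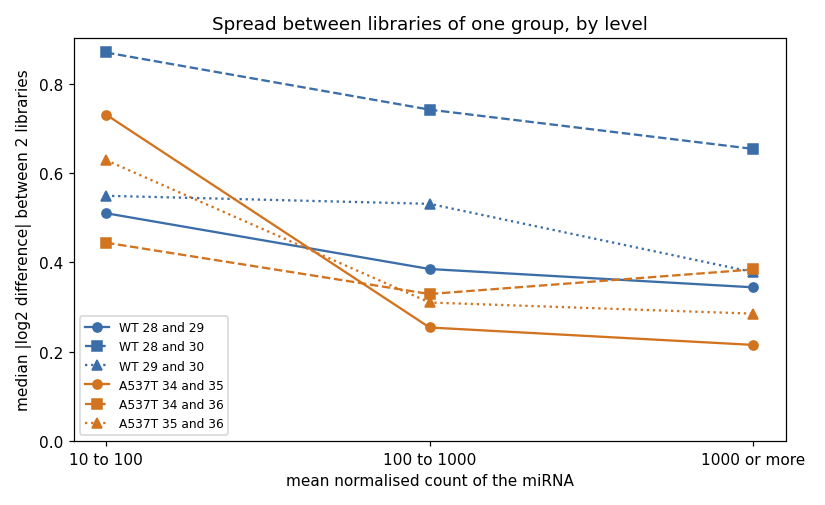
Median absolute log2 difference between 2 libraries of the same group, for miRNAs in 3 ranges of mean normalised count (216, 139 and 156 miRNAs). WT libraries 28 and 30 differ most at every level (0.87, 0.74 and 0.65), and the A537T pairs that include the shallow library 35 rise above the pair 34 and 36 only in the lowest range.

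The counts of miRNAs with a small p depended on single libraries. Without WT library 28, there were 42 higher and 41 lower at an unadjusted p under 0.05 in limma and 0 past the adjusted threshold (smallest adjusted p 0.0847). Without A537T library 35, there were 3 and 2, and without library 36, 2 and 3. All 23 miRNAs kept their sign without library 35, and 4 of them kept an unadjusted p under 0.05 (miR-451a, miR-582-5p, miR-375-3p and miR-486a-3p). Without library 29 there were 3 and 3, and without library 30 there were 3 and 9.

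The same miRNAs were read in 3 other comparisons for context. The prostate-specific Elac2 knockout at 10 weeks (KO, exon 8 removed by Pb-Cre) was compared with the same 3 WT libraries, so its values are not independent of those above and are given side by side. In the KO comparison 0 of 561 miRNAs passed the adjusted threshold in limma, and the smallest adjusted p was 0.213. miR-375-3p was 0.90 ± 0.27 in KO (limma adjusted p = 0.225) against -1.51 ± 0.47 in A537T. It had 60538, 45707 and 63350 normalised counts in the KO libraries and 34444, 37331 and 21036 in the WT libraries as scaled with them. miR-30a-5p was 0.21 ± 0.17 and miR-10b-3p 0.53 ± 0.20 in KO, and miR-451a was 0.63 ± 0.27. miR-206-3p was -5.24 ± 1.49 in KO, where the muscle list took 0.736% to 6.51% of reads. KO library 32 held 17704 of miR-206-3p and the other KO libraries 381.9 and 307.6.

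**Figure D5:**
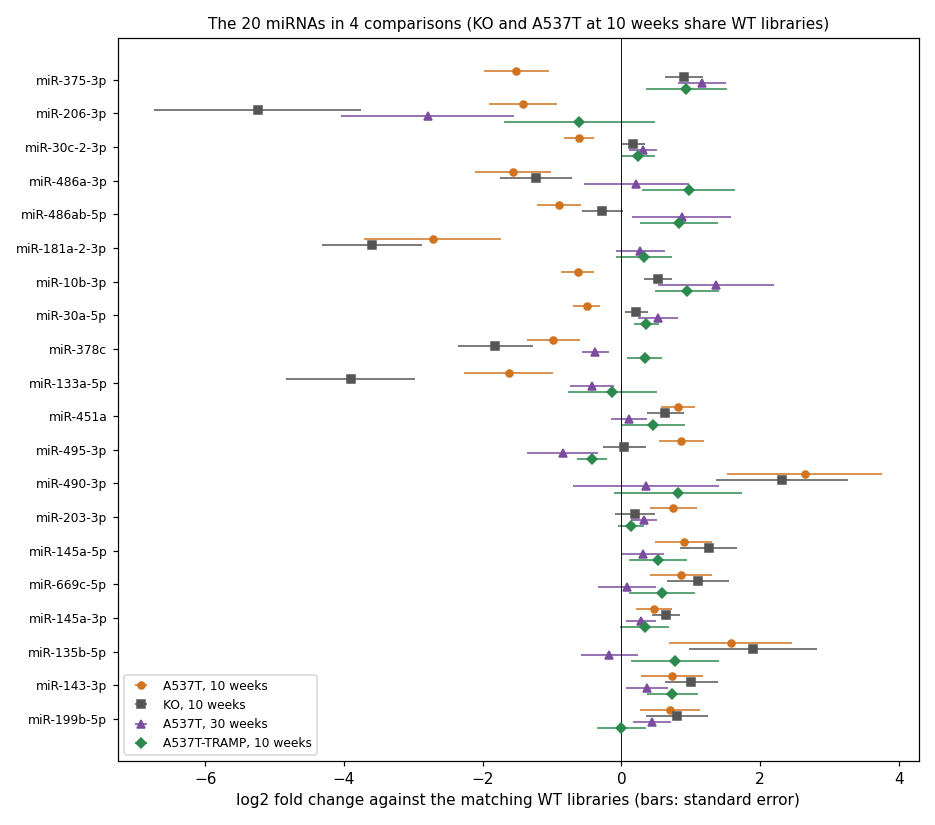
log2 fold change against the matching WT libraries (points) with its standard error (bars) for the 10 lower and 10 higher miRNAs in A537T at 10 weeks (orange circles), KO at 10 weeks (grey squares), A537T at 30 weeks (purple triangles) and A537T-TRAMP at 10 weeks against WT-TRAMP (green diamonds). The A537T and KO values at 10 weeks share their WT libraries; miR-375-3p, miR-30a-5p and miR-10b-3p lie below 0 in A537T at 10 weeks and above 0 in the other 3, while miR-145a-5p and miR-143-3p lie above 0 in all 4.

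The A537T effect was then compared with that in older mice (30 weeks, separate A537T and WT libraries), which asks whether the difference changes with age. In limma 0 of 499 miRNAs (0%) passed the adjusted threshold for a change with age, and 38 (7.62%) had an unadjusted p under 0.05. edgeR gave 0 calls and DESeq2 gave 6. miR-375-3p had the smallest p, with a difference of 2.67 ± 0.63 between the effects at 30 and at 10 weeks (limma adjusted p = 0.406). At 30 weeks it stood at 46925, 21440 and 27072 in WT and at 77032, 47489 and 82898 in A537T. Every A537T value exceeded every WT value, but the lowest A537T value, in library 26, was only just above the highest WT value, in library 19. miR-375-3p was also among the 6 DESeq2 calls (adjusted p = 0.0153), with miR-10a-3p, miR-10a-5p, miR-135a-5p, miR-142a-5p and miR-20a-5p. In limma without A537T library 26 of the older mice there were 7 calls, for both strands of miR-10a and of miR-10b, miR-20a-5p, miR-30a-5p and miR-486ab-5p. At 30 weeks miR-10a-5p had 158610, 128160 and 131250 in WT and 430920, 157620 and 569710 in A537T, and library 26 gave the lowest of these 3 A537T values, just under the highest WT value.

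The same question was put for the TRAMP background at 10 weeks (A537T-TRAMP against WT-TRAMP, both labelled TRAMP +/-). Here 0 of 460 miRNAs (0%) passed the adjusted threshold in limma, 26 (5.65%) had an unadjusted p under 0.05, while edgeR and DESeq2 gave 0 calls. miR-30a-5p had the smallest p, with a difference of 0.86 ± 0.25 between the effects with and without TRAMP (limma adjusted p = 0.647). It had 73924, 85307 and 88039 in WT-TRAMP and 93125, 124990 and 101230 in A537T-TRAMP, each A537T-TRAMP value above each WT-TRAMP value. Without WT library 28 there were 3 calls in limma, for miR-378a-3p, miR-378c and miR-495-3p, each at an adjusted p of 0.0488.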

How the data were processed

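Small RNA libraries (TruSeq Small RNA, Illumina NovaSeq) came from ventral and lateral prostate. The authors merged read pairs and removed adapters with BBMerge, mapped and counted with mirDeep2 v0.1.3 against GRCm38 and miRBase 22.1, summed identical miRNAs, and deposited the values as a signal: counts divided by DESeq2 size factors, a table for each comparison. The tables of the authors' own comparisons hold fold changes and s-values and were not used. Whole reads were recovered from the steps in the values (100% of values within 0.1 of a whole number). log2(normalised count + 1) of miRNAs with a mean of at least 10 was fitted with limma 3.58.1 (variance trend, Benjamini-Hochberg adjustment, all two-sided, R 4.3.3), and fold changes are on that scale, which understates those of rare miRNAs. Changes with age and TRAMP were tested as differences of the 2 effects in 1 fit. edgeR 4.0.16, DESeq2 1.42.0 and limma-voom on recovered reads were alternatives. A further edgeR fit held 35 libraries, since reads of KO library 33 could not be checked. The scripts were tested on simulated data. Named miRNAs were the 10 higher and 10 lower with the smallest p at a mean of at least 100, the 10 most abundant, the 2 most abundant of each list, all muscle, red cell and leukocyte members, opposite strands, and the smallest p of each change. Members and lists were chosen with earlier results of these data known. Whether the 3 libraries of a group came from separate mice is taken from the study's description, and otherwise p-values measure only the spread between these libraries.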

Additional observations from a re-analysis of the deposited data

How the results depend on the processing

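The count of 0 miRNAs past the adjusted threshold held under all 12 other settings and with each of the 6 libraries left out, and the smallest adjusted p was 0.0847. The counts at an unadjusted p under 0.05 (7 higher and 16 lower) moved. The higher count was 12 without the filter on low values, 2 at a mean of at least 100, 3 with totals that leave out the muscle list, 20 with library quality weights, 14 after thinning to library 35, and 2 to 42 with 1 library left out. The lower count was 43 without the filter, 10 without the variance trend, 28 with quality weights, 32 when edgeR was fitted to 35 libraries together, and 2 to 41 with 1 library left out. Scaling to totals moved the median of all miRNAs to 0.15, thinning to 0.16 and no filter to -0.17. The change with age gave 154 calls with quality weights, whose estimate did not converge, 6 with DESeq2, and 0 to 7 with 1 library left out (7 without A537T library 26). The change with TRAMP gave 0 to 3 (3 without WT library 28). The cause of these shifts was not tested.

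Of the 52 miRNAs whose fold changes are printed, 46 kept their direction in every setting, but size was less stable. In all, 37 moved by over 1.5 times with 1 library left out, 26 of them without WT library 30, 15 without A537T library 36 and 11 without WT library 28, against 3 to 6 without each of the others. With 1 library left out the log2 fold change ran from -0.6808 to 0.0498 for miR-148a-3p (0.0095 without A537T library 36), from -0.0426 to 0.4658 for miR-21a-5p, from -0.928 to 0.1205 for miR-1a-1-5p, from -0.6439 to 0.0685 for miR-30d-5p, from -0.6222 to 0.0987 for miR-181a-5p and from -1.9852 to 0.08 for miR-128-3p. Of the 78 miRNAs named by rule, 33 changed sign in some setting, none with a log2 fold change over 0.56 in size. miR-128-3p, named after its values were seen and outside the 78, changed sign from a log2 fold change of -1.14. No paired analysis was possible because the columns carry library numbers and no replicate numbers. Depth limits mainly library 35, where 146 miRNAs had 3 reads or fewer.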
